A study of Mus musculus with 12 samples.

Results

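RNA that an anti-FMRP antibody recovered from ovaries of Fmr1 knockout (KO) mouse embryos is described here, for the rows of the deposited table with the highest values in that KO material. RNA immunoprecipitation followed by sequencing (RIP) captures a protein with an antibody and sequences the RNA that comes down with it. A row was called KO-high when its fold enrichment, a linear ratio computed by the authors, was at least 4 in all 3 KO RIP libraries. This held for 579 of 14447 rows (4.01%), which belonged to 398 of 7525 genes (5.29%). The rows were thus selected on the KO ratios themselves, which are given as a description with no test.

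FMRP, the product of Fmr1, is an RNA-binding protein that represses the translation of many messenger RNAs and is best known from neurons, where its loss causes fragile X syndrome. In the fetal ovary, germ cells are in meiotic prophase and lie among pregranulosa cells and a stroma that lays down collagens and laminins. In a RIP experiment, tissue that lacks the target protein is the usual measure of the RNA that is recovered without it.

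All samples were whole ovaries of mouse embryos at E16.5, with 5 pairs of ovaries per sample, and the 4 groups were KO input, wild-type (WT) input, KO RIP and WT RIP, with 3 libraries each. The labels give the strain B6.129P2-Fmr1tm1Cgr/J for every sample, KO and WT alike, and the design text calls the WT animals littermates. Whether the KO embryos were homozygous is not stated in the sources used here. RIP samples carry the antibody label FMRP ab17722 and input samples carry none, the input being 10% of the homogenate of a sample. The labels call the samples biological replicates, and p-values reflect only how much these pools of ovaries varied.

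The input libraries held 18880238 to 25707718 counted reads, while the read depth behind the ratios is unknown. Of 33 marker genes of ovarian and other cell types listed for a check of the tissue, 4 could be named in the count files, and the others were not checked. The meiotic gene Sycp1 stood at 17.6 to 30.6 CPM per kb (reads relative to library size after TMM scaling, divided by exonic length) over the 6 inputs, the meiotic entry gene Stra8 at 2.16 to 4.24, the gonadal transcription factor gene Nr5a1 at 8.57 to 10.4 and the collagen gene Col1a1 at 1028 to 1387. In whole tissue, fewer cells of a type and less RNA per cell cannot be told apart. Fmr1 itself (ENSMUSG00000000838) had input levels of 9.52, 13.7 and 10.4 CPM per kb in KO, against a mean of 23.7 in WT (log2 change -1.08, SE 0.11, Benjamini-Hochberg adjusted p = 0.00776 from edgeR's quasi-likelihood test). Its single row in the RIP table was not KO-high, with ratios of 0.388, 0.439 and 0.439 in KO and 1.34, 1.43 and 1.40 in WT.

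KO-high rows had similar distributions in the 3 KO libraries. Their median ratio was 6.55, 6.78 and 7.03 in KO replicates 1, 2 and 3, against 1.68 to 1.75 for the other 13868 rows in the 6 libraries. Taken alone, the libraries had 1058, 1329 and 1371 rows at 4 or more, and the KO-high rows made up 54.7%, 43.6% and 42.2% of these. A further 645 rows reached 4 in exactly 2 KO libraries and 731 in exactly 1. Without KO replicate 1 the rule held for 950 rows, and without replicate 2 or 3 for 759 or 673. Quantile normalization of the KO columns gave 567 rows, of which 530 were among the 579.

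**Figure D1:**
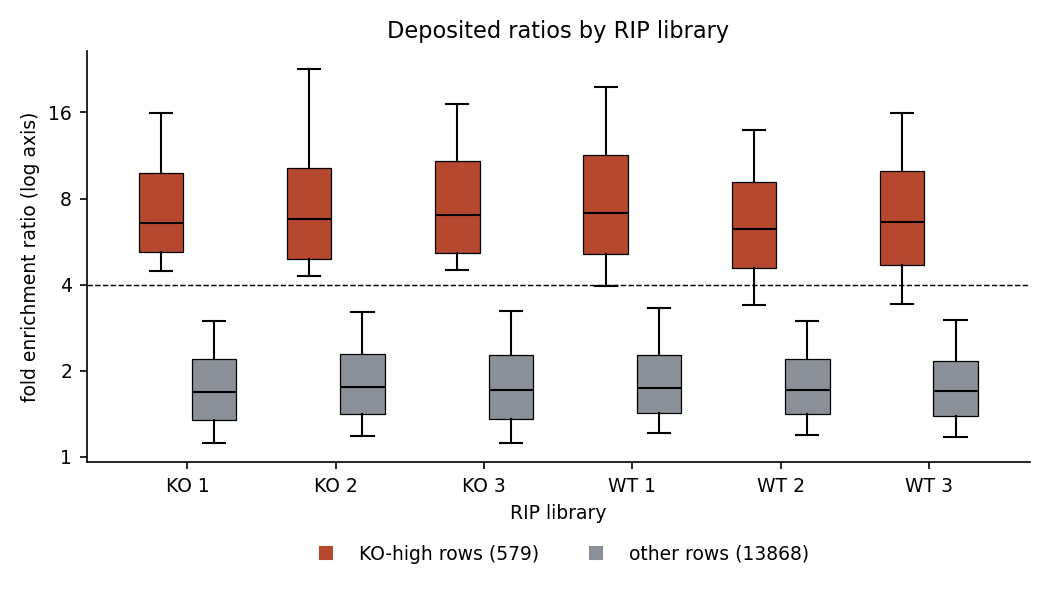
Fold enrichment ratios (log axis) of the 579 KO-high rows and the 13868 other rows in each of the 3 KO and 3 WT RIP libraries. Boxes span the quartiles with the median as a line, whiskers run from the 10th to the 90th percentile, and the dashed line is the ratio of 4. The KO-high boxes lie above 4 in all 6 libraries, with medians of 6.24 to 7.14.

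Within a KO-high row, the highest KO ratio was 1.59 times the lowest at the median. In 394 rows (68.0%) it was under 2 times, and in 56 rows over 4 times. No single library gave most of the high values: the highest ratio of a row came from replicate 1 in 215 rows, from replicate 2 in 182 and from replicate 3 in 182. Rows of genes with low input had the widest spread, with a median of 1.85 times at a KO input under 8 CPM per kb, 1.73 times at 8 to 32 and 1.48 times at 32 or more.

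The lowest KO ratio of a row was under 5 in 248 KO-high rows, 5 or more in 331 and at least 20 in 10. The members just inside it were rows of ENSMUSG00000024359, ENSMUSG00000023972 and ENSMUSG00000003534, with lowest KO ratios of 4.002, 4.002 and 4.003. Just outside were rows of ENSMUSG00000018666, ENSMUSG00000029718 and ENSMUSG00000031502, with 3.995, 3.994 and 3.994. A further 558 rows had a lowest ratio between 3 and 4.

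The 10 genes with the highest KO-high rows included the collagen genes Col3a1 and Col4a2. The row with the highest lowest ratio was one of ENSMUSG00000073940 (chromosome 7, 103461731 to 103463203, 3 exons, exonic length 703 bp). It stood at 82.8, 139.6 and 275 in KO and at 63.97, 53.3 and 103.96 in WT. KO replicate 3 and WT replicate 3 were the highest of their groups, and the ranges overlapped. The same gene had the highest KO input of all KO-high genes, at 2991 ± 489 CPM per kb (SD, n = 3), and its other row in the table was not KO-high.

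ENSMUSG00000029661 (chromosome 6, 4504814 to 4541544, 48 exon blocks) followed, with 143, 105 and 79.8 in KO and 86.7, 44.5 and 46.0 in WT. WT replicate 1 fell within the KO range and WT replicates 2 and 3 below it. ENSMUSG00000024387 (chromosome 17, 35335172 to 35341029) had 35.7, 32.7 and 77.8 in KO, and all WT values were lower, at 28.0, 16.53 and 11.3.

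Other rows of this group were less even. ENSMUSG00000024393 (chromosome 17, 35368052 to 35383873) had 25.8, 78.2 and 76.0 in KO and 133, 28.2 and 17.4 in WT, with WT replicate 1 above every other library. ENSMUSG00000034807 (chromosome 8, 72063642 to 72077555) had 20.2, 107 and 31.8 in KO, so replicate 2 stood apart, and 55.0, 9.64 and 7.14 in WT. ENSMUSG00000027566 (chromosome 2, 179678167 to 179684226) had 30.9, 19.7 and 22.6 in KO and 30.5, 47.3 and 17.8 in WT, and the genotypes overlapped.

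Of a list of collagens, laminins and fibronectin, 4 genes that could be named were KO-high. Col3a1, which encodes the chain of the fibrillar type III collagen (ENSMUSG00000026043, chromosome 1, 45350698 to 45388866), had its highest row at 32.6, 36.8 and 29.9 in KO. The same row stood at 37.8, 29.9 and 31.0 in WT, so the genotypes overlapped throughout. Col4a2, a chain of the basement membrane collagen IV (ENSMUSG00000031503, chromosome 8, 11362805 to 11499287), reached 27.6, 41.1 and 55.1 in KO. In WT this row was low in replicate 1, at 11.9, and within the KO range in replicates 2 and 3, at 48.1 and 47.1. Col1a1, a chain of the fibrillar type I collagen (ENSMUSG00000001506, chromosome 11, 94827050 to 94843868), had a much lower ratio despite its high input. Its highest row stood at 5.57, 5.205 and 5.02 in KO and 5.43, 4.58 and 5.61 in WT, and its KO input at 1170 ± 92.8 CPM per kb (SD, n = 3).

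Lamc1, the laminin gamma 1 chain of basement membranes (ENSMUSG00000026478), had 12.7, 7.16 and 5.82 in KO and 5.71, 6.35 and 4.54 in WT. KO replicate 1 was the high value, and the other libraries overlapped. The genes of this list that could be named in the table had 42 rows, of which 19 were KO-high. The list's median lowest KO ratio was 3.63, against 1.48 over all rows. A pair of matrix-related genes outside that list was also KO-high. Thbs1, which encodes the matricellular protein thrombospondin 1, had 4.53, 4.44 and 5.19 in KO. P4hb, the protein disulfide isomerase that is also a subunit of the collagen prolyl hydroxylase, had 5.37, 4.54 and 4.55, close to its WT values of 4.87, 4.89 and 4.78.

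In all, 28 KO-high genes could be named, 5.50% of the 509 named genes in the table. Their highest rows had lowest KO ratios from 4.04 to 29.9, and 22 of them were at 4 or more in all WT libraries too. For 1 of them, Rbmxl2, a germ-cell retrogene for an RNA-binding protein and the only single-exon gene of the 28, all WT ratios lay below all KO ratios (6.75% of all rows), at 4.08, 1.67 and 2.70 against 4.57, 9.20 and 6.19.

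Genes for retinoid and aldehyde metabolism were among them. Aldh1a2, which makes retinoic acid, had 5.60, 6.57 and 7.09 in KO and 6.27, 6.44 and 11.5 in WT. Crabp1, a cytoplasmic retinoic acid binding protein, had 7.55, 9.82 and 6.48 in KO, and WT replicate 3 was its highest value, at 26.3. Aldh2, a mitochondrial aldehyde dehydrogenase, had 7.77, 7.57 and 5.19.

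Cell cycle genes were among them too. Nek9, a mitotic kinase, had 11.2, 7.93 and 4.73 in KO, with replicate 1 the highest. Wee1, the kinase that holds back entry into mitosis, was just over the threshold in replicates 1 and 2, at 4.04 and 4.38, and at 8.60 in replicate 3.

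Genes of RNA processing were represented by Ddx39b, a helicase of splicing and messenger RNA export, at 5.83, 4.31 and 4.42, and by Sart1, a factor of the spliceosome, at 4.31, 20.5 and 6.63. Isg20l2, an exonuclease, had 4.97, 25.8 and 5.97, with KO replicate 2 again the high value. These rows of Ddx39b, Sart1 and Isg20l2 repeat all 6 ratios of a row of an overlapping gene, so they cannot be assigned to 1 gene. The same holds for the rows of Wee1, Gm29443 and A230083G16Rik.

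Genes of organelles and of the nuclear envelope made up much of the remainder. Lamp1, a lysosomal membrane glycoprotein, had 5.75, 8.96 and 5.91 in KO and 9.21, 8.65 and 7.43 in WT. Fis1, a factor of mitochondrial fission, had 16.4, 19.4 and 5.26. Uqcrq, a subunit of respiratory complex III, had 6.02, 7.67 and 5.30. Lmnb1, which encodes lamin B1 of the nuclear lamina, had 8.66, 6.94 and 9.72 in KO and 8.57, 5.27 and 11.2 in WT. Itm2b, an integral membrane protein, had 6.79, 11.7 and 15.6. Septin9, a cytoskeletal GTPase, and Add1, the membrane skeleton protein adducin, were even and near the threshold, at 5.55, 4.32 and 5.13 and at 4.72, 4.44 and 4.61. Others were Calcoco1, Ubqln1, Aamp, Gm29443 and A230083G16Rik.

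In the other lists, 0 genes that could be named in the table were KO-high, where 5.29% of all genes were, so a count of 0 among so few genes is near the background. These were 1 replication-dependent histone gene (H2bc6), 1 structural noncoding RNA gene (Snhg10), 11 zinc finger genes with 18 rows, 1 meiosis gene (Sycp1) and Fmr1. Zfp503, which encodes a zinc finger protein, came nearest, with 2.74, 7.39 and 6.63 in KO, where replicate 1 was under the threshold. None of the 37 genes of the mitochondrial genome had a row.

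Taken over all input levels, exonic length barely separated KO-high rows from the others. The median exonic length, all isoforms merged, was 4932 bp for KO-high rows and 4858.5 bp for other rows, a ratio of 1.02. The direction depended on the selection: the ratio was 0.829 for rows with all KO ratios at 8 or more, and 0.841 without genes of 10 or more rows, an alternative chosen after seeing the data. By length class, the share of rows that were KO-high was 3.43% under 1 kb, 4.77% at 2 to 4 kb, 4.74% at 8 to 16 kb and 1.07% at 16 kb or more. The order by length differed with KO input. At 32 CPM per kb or more the share was 5.52% under 2.5 kb, 13.9% at 2.5 to 5 kb and 15.0% at 5 kb or more. In the same length classes it was 1.59%, 2.91% and 2.84% at 8 to 32 CPM per kb, and 3.55%, 1.19% and 0.791% under 8. The longest KO-high gene was ENSMUSG00000055204 (35542 bp), with 5.71, 4.23 and 4.05 in KO. The shortest were ENSMUSG00000093156, ENSMUSG00000098499 and ENSMUSG00002075547, of 60, 61 and 64 bp, and the rows of these 3 repeat a row of another, overlapping gene.

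Exon number separated them more. The exons of all isoforms were merged where they overlap, and each merged stretch is called an exon block. KO-high rows came from genes with a median of 15 blocks, other rows from genes with 11, a ratio of 1.36. The share of rows that were KO-high was 1.87% for genes with 1 block, 2.30% with 2 to 4, 3.26% with 5 to 9, 4.42% with 10 to 19, 4.52% with 20 to 29 and 7.35% with 30 or more. Since lengths were similar, exonic length per block was shorter, with a median of 272 bp against 430 bp. At 2.5 to 5 kb of exonic length, the KO-high share was 1.21% for genes with 1 to 4 blocks, 3.54% with 5 to 9, 6.14% with 10 to 19 and 6.73% with 20 or more.

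Single-exon genes held 22 KO-high rows (3.80%), against 8.34% of the other rows. Without rows that repeat the ratios of another row, an alternative chosen after seeing the data, the share was 1.01% of KO-high rows and 6.66% of other rows. Most KO-high rows of single-exon genes thus shared their ratios with a row of an overlapping gene.

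KO-high rows came from genes with high input. The median level in the KO inputs was 36.4 ± 0.811 CPM per kb (SD, n = 3) for KO-high rows and 12.3 ± 0.0518 for other rows, a ratio of 2.96 ± 0.055. The WT inputs, which come from other animals, gave 36.2 ± 0.464 and 12.3 ± 0.0556, a ratio of 2.94 ± 0.027 (SD, n = 3). These SDs cover the input libraries over a fixed set of rows and not the choice of rows: with all library means pooled the ratio was 2.99, and it was 2.03 for rows chosen without KO RIP replicate 1, 1.92 for rows chosen by the mean KO ratio and 5.05 at a threshold of 8. What the deposited ratio is divided by is not given in the sources used here, so input level and ratio may not be independent and no test was made.

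Split into 10 equal groups (deciles) by KO input level, the share of rows that were KO-high was 3.18% in the lowest, 0.623% in the second and 14.7% in the highest. From the sixth decile upward it was higher at every step, at 1.73%, 3.11%, 5.19%, 7.96% and 14.7%. Each KO library taken alone had the same order: in the highest decile, 21.2%, 19.03% and 21.5% of rows were at 4 or more in replicates 1, 2 and 3, and in the second decile 1.52%, 4.08% and 2.91%. The median ratio itself differed less, with a median over rows of the mean KO ratio of 1.69 in the second decile and 2.098 in the highest. Counted by gene, the share was not highest at the very top of input. Of the 98 genes with the highest KO input, 6 (6.12%) had a KO-high row, against 20.8% of the next 318 genes. By row, the shares of these 2 sets were 18.2% and 15.3%. ENSMUSG00000029661 and Col3a1 held 12 and 10 of the 29 KO-high rows of the 98 genes.

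**Figure D2:**
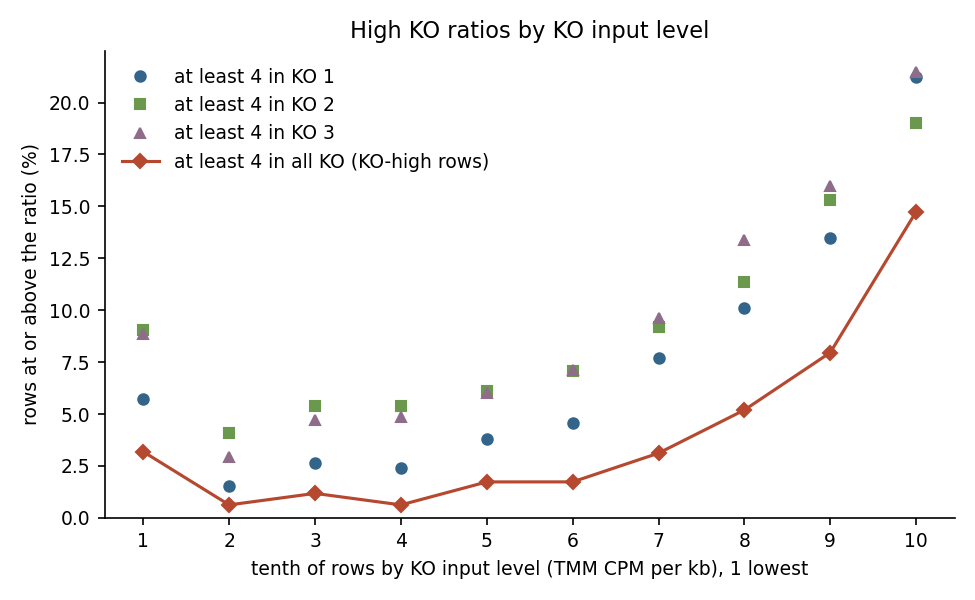
Share of rows (%) at a ratio of 4 or more, by decile of KO input level over all rows, 1 being the lowest. Points are the 3 KO RIP libraries taken alone and the line is the KO-high rows, which go from 1.73% in the sixth decile to 14.7% in the highest.

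Rows shared between genes were frequent at the lowest input. Genes under 1 CPM per kb held 6.74% of the KO-high rows and 8.63% of the other rows. Of the 39 KO-high rows from genes under 1 CPM per kb, 38 repeat all 6 ratios of another row. Among the 39 were 18 rows of genes with no read in any KO input, such as ENSMUSG00000101645 (chromosome 2, 84431783 to 84508385), whose ratios were 9.42, 8.05 and 15.5 in KO. Genes with no read in any KO input also held 390 of the 13868 other rows. All 41 repeated sets of ratios among the KO-high rows came from genes whose spans overlap. Of the KO-high rows, 84 (14.5%) were such repeats, against 20.1% of the other rows, and the 579 rows held 536 distinct sets of ratios.

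The KO-high share was highest where input level and exon number were both high. Among rows of genes at 32 CPM per kb or more, the KO-high share was 3.64% with 1 to 4 exon blocks, 7.56% with 5 to 9, 14.0% with 10 to 19 and 17.8% with 20 or more. In genes under 8 CPM per kb it was 2.35%, 1.48%, 1.01% and 1.19% over the same classes. At 8 to 32 CPM per kb it was 1.08%, 3.35%, 3.29% and 2.41%. The share was thus higher at every step of exon blocks only at 32 CPM per kb or more. At 8 to 32 it was lowest with 1 to 4 blocks and highest with 5 to 9. Under 8 it was highest with 1 to 4. The difference between these orders was not tested. Of the 74 KO-high rows under 8 CPM per kb, 39 were under 1, and 38 of those 39 repeat the ratios of another row. The shares by exon blocks within input classes were not computed without repeated rows.

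**Figure D3:**
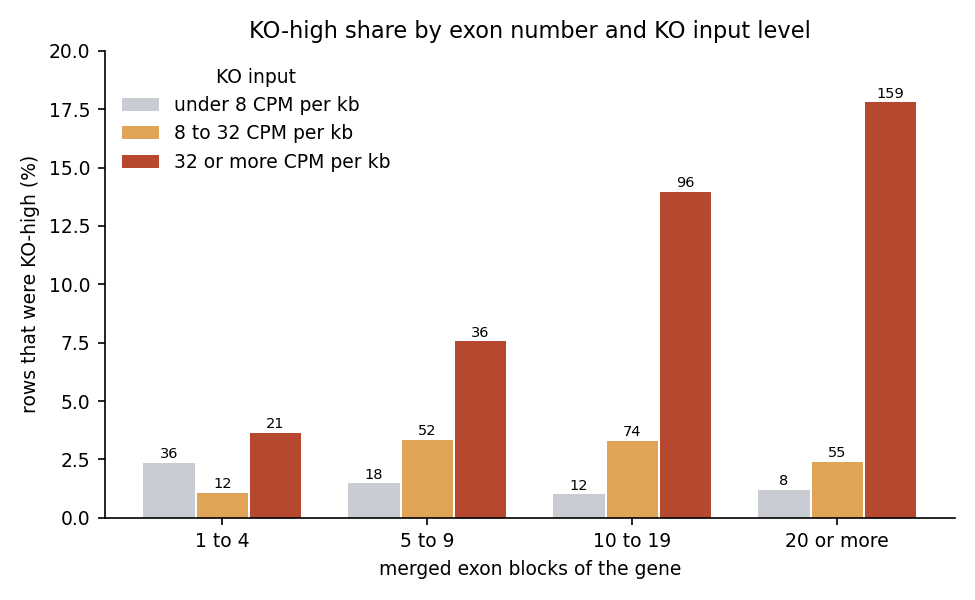
Share of rows (%) that were KO-high, by the number of merged exon blocks of the gene and by KO input level in 3 classes. Numbers over the bars are KO-high rows, and the tallest bar is 17.8%, at 20 or more blocks and 32 CPM per kb or more.

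The profile of the KO-high rows continued a grade that ran through the other rows. Rows with a lowest KO ratio from 1 to 1.5 had a median KO input of 10.7 CPM per kb, and the median was 12.8 at 1.5 to 2, 18.9 at 2 to 3, 24.4 at 3 to 4, 30.3 at 4 to 6, 40.2 at 6 to 8 and 63.6 at 8 or more. Median exonic length per block was 474 bp in the first of these classes and 247 bp in the last. The median number of exon blocks was 10 in the classes from 1 to 2 and 14 to 15 in those from 2 upward.

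KO-high rows were concentrated in genes with many rows, but rarely filled them. A gene with 1 row in the table had a KO-high row in 0.942% of cases, a gene with 5 to 9 rows in 27.4%, and a gene with 10 or more in 57.1%. Per row, the KO-high share was 0.942%, 7.21% and 14.7% in the same classes. Of the 398 genes, 354 also had rows under the threshold, and of their 1840 rows in all, 31.5% were KO-high. Where on the transcript a row lies is not given in the sources used here.

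ENSMUSG00000026193 (chromosome 1, 71624679 to 71692359, 45 exon blocks) had the most, 14 of 27 rows. Their lowest KO ratios ran from 1.27 to 10.9 over all 27 rows. ENSMUSG00000029661 had 12 of 13 rows, with 1 row under the threshold at 2.62, 2.96 and 2.62 in KO. Col3a1 had 10 of 14, from a lowest ratio of 1.10 up to the 29.9 of its highest row. ENSMUSG00000026042 (chromosome 1, 45413481 to 45542442), which lies beside Col3a1 in the count files, had 9 of 13. ENSMUSG00000026837 (chromosome 2, 27776437 to 27929526, 67 blocks) had 7 of 16. Rows of Col3a1 thus differed far more among themselves than the replicates of its highest row, which lay between 29.9 and 36.8.

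**Figure D4:**
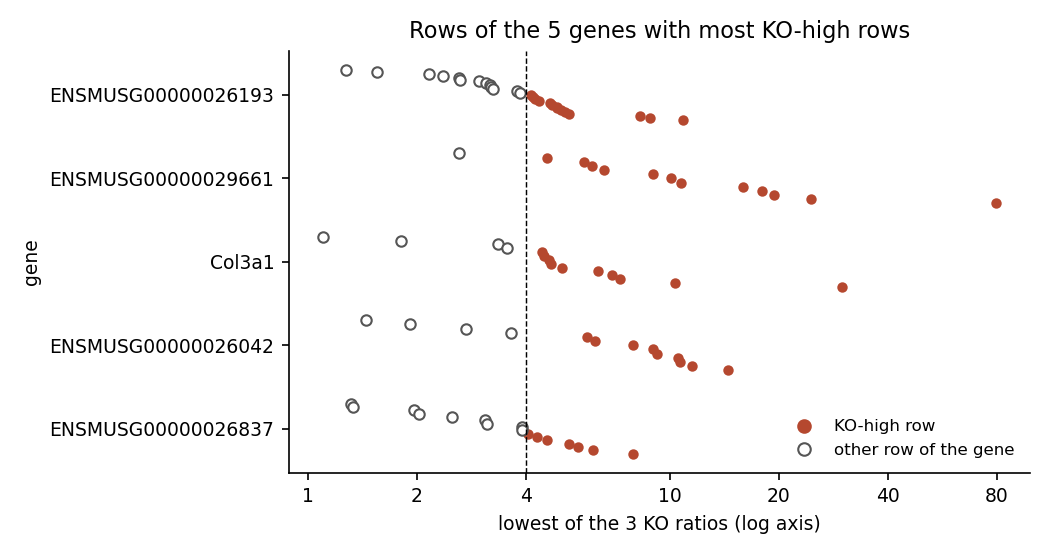
Lowest of the 3 KO ratios (log axis) of every row of the 5 genes with most KO-high rows; filled points are KO-high rows, open points other rows, and the dashed line is 4. Rows of ENSMUSG00000026193 run from 1.27 to 10.9, and those of ENSMUSG00000029661 from 2.62 to 79.8.

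The KO-high rows were high in WT too. In the WT RIP libraries, which the rule did not use, their median ratio was 7.14, 6.24 and 6.64, and 88.8%, 83.6% and 83.6% of them were at 4 or more, against 6.58%, 3.86% and 4.50% of the other rows. All 3 WT ratios were at 4 or more in 414 of the 579 rows, which is 71.5% of the KO-high rows and 66.8% of the 620 rows that were high in all WT libraries. The background over all rows was 4.29%, and 206 of the other rows (1.49%) passed. Of the 165 KO-high rows that did not pass, 110 were at 3 or more in all WT libraries, and 11 were under 4 in all of them.

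How often a KO-high row was high in WT followed its KO level. With a lowest KO ratio of 4 to 5, 52.0% of 248 rows were at 4 or more in all WT libraries. The share was 77.9% at 5 to 6, 86.9% at 6 to 8, 97.1% at 8 to 10, 95.3% at 10 to 20 and 100% of the 10 rows at 20 or more. It also differed by KO input, at 58.1% of 74 rows under 8 CPM per kb, 61.7% of 193 at 8 to 32 and 80.8% of 312 at 32 or more.

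**Figure D5:**
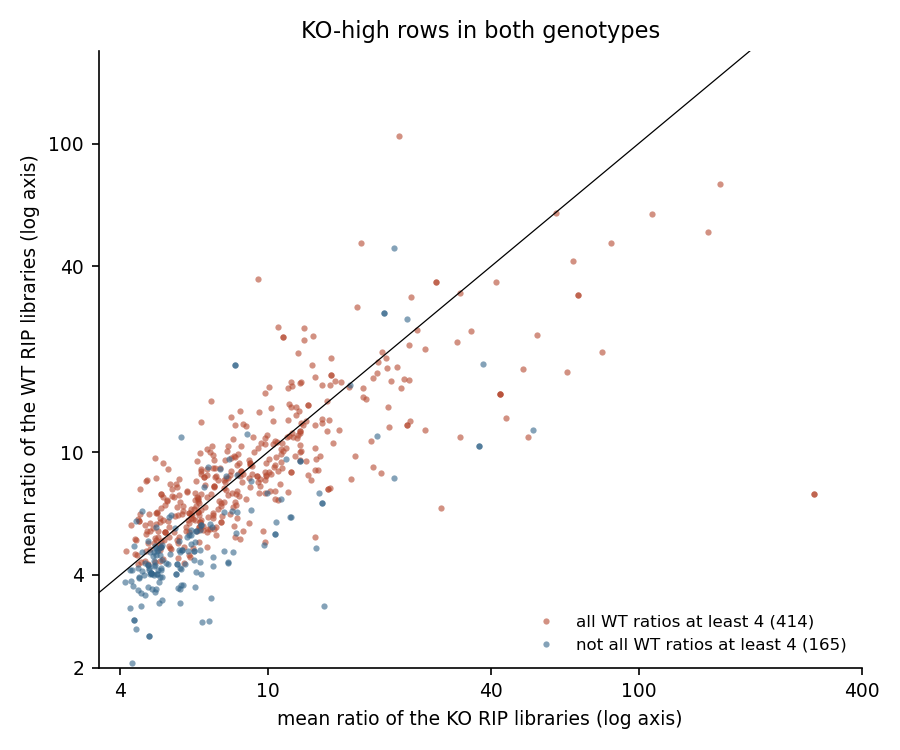
Mean ratio of the 3 WT RIP libraries against the mean ratio of the 3 KO RIP libraries for the 579 KO-high rows, both on log axes, with the line of equal values. The 414 rows with all WT ratios at 4 or more and the 165 others are coloured apart, and the median WT over KO ratio is 0.924.

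The WT mean was 0.924 times the KO mean at the median of the KO-high rows (quartiles 0.776 and 1.12), and 0.998 times at the median of other rows. Since the rule asks for high KO values, a ratio under 1 follows in part from the choice of rows and is given without a test. The KO mean was at least 1.5 times the WT mean in 90 rows, and the WT mean at least 1.5 times the KO mean in 30. WT ratios lay all below the KO ratios in 39 KO-high rows (background 6.75% of all rows) and all above them in 25 (background 8.4%).

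Most of the extreme differences rested on single libraries. A row shared by ENSMUSG00000030122 (chromosome 6, 124890644 to 124897066) and the overlapping A230083G16Rik had 5.24, 862 and 24.8 in KO and 11.2, 4.74 and 6.05 in WT. The value of KO replicate 2 was 164 times that of replicate 1. ENSMUSG00000024811 had 12.1, 133 and 5.30 in KO, again with replicate 2 highest, and 12.9, 15.2 and 5.40 in WT. In the other direction, ENSMUSG00000021282 had 309 in WT replicate 1 and 4.42 and 4.36 in WT replicates 2 and 3, beside 6.90, 36.3 and 24.4 in KO. ENSMUSG00000031451 was the most even of these rows, with 9.02, 11.0 and 11.96 in KO and 41.4, 17.7 and 17.3 in WT, so the WT values lay above all KO values.

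Rows high in only 1 genotype had lower input than rows high in both. The median KO input was 43.2 CPM per kb for the 414 rows high in all 6 libraries, 24.96 for the 165 high in all KO libraries only and 22.9 for the 206 high in all WT libraries only, against 12.2 for rows in none of these sets. The median number of exon blocks was 16, 13, 17 and 11 in the same order. Single-exon genes held 3.14%, 5.45%, 0.485% and 8.46% of the rows. Rows high in WT only had a median lowest KO ratio of 3.07, the lowest of all being 0.859, and 111 of the 206 were at 3 or more in all KO libraries.

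The ratios of WT and KO were compared over the whole table, and the KO-high rows are given as a description, since the KO side of this contrast chose them. Rows with a mean ratio under 1 were not tested, and the row of Fmr1 was among them. Of the 14365 rows tested with limma on log2(ratio + 1), 0 had an adjusted p under 0.05 (0% of rows). An unadjusted p under 0.05 was reached by 859 rows with the higher values in WT (5.98%) and by 413 with the higher values in KO (2.88%). Of the 579 KO-high rows, 11 passed that unadjusted level with the higher values in KO and 0 with the higher values in WT. Nothing is read from these counts. The smallest adjusted p over all tested rows was 0.375 (limma with Benjamini-Hochberg adjustment). Without the limit of 1 on the mean ratio, limma called 1 row, with the higher values in WT. With that limit kept, the number of KO-high rows at an unadjusted p under 0.05 with the higher values in KO also varied. It was 40 without WT replicate 1, 19 without KO replicate 1, 7 without WT replicate 2, and 8 to 10 without any other single library. Over all rows these counts were 622 of 14316, 460 of 14378 and 285 of 14326, and 337 to 481 without any other single library.

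No KO-high gene was called between the KO and WT inputs. Of the 398 genes, 369 passed the low-count filter, and 0 of these were called by edgeR's quasi-likelihood test at an adjusted p under 0.05, where 10 of all 23698 genes were (0.0422%). At an unadjusted p under 0.05, 13 of them were higher and 15 lower in KO, where all genes gave 2.9% and 3%. Other settings called 1 (DESeq2), 2 (replicate number as a block), 3 (no low-count filter) and 2 (without WT input replicate 2) of them. Over all genes tested, the same settings called 37 of 20737, 20 of 23698, 113 of 49570 and 28 of 24480. In the first edgeR fit above, the smallest adjusted p among KO-high genes was 0.190 (edgeR with Benjamini-Hochberg adjustment). All but 1 of the 369 genes had a log2 change between -0.5 and 0.5, 99.7%, against 91.1% of all tested genes. The exception was ENSMUSG00000073940, with a log2 change of -0.59 (SE 0.19, adjusted p = 0.796, edgeR). Col3a1, by contrast, had a log2 change of -0.07 (SE 0.06), and Col1a1 one of -0.06 (SE 0.11). The shares between -0.5 and 0.5 were not compared at equal input. The median KO input, not divided by length, was 120 CPM for KO-high genes and 39.1 CPM for the other genes of the RIP table.

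Identical ratios recurred within a library throughout the table. Among the 12911 distinct sets of 6 ratios, 4308, 4631 and 3725 shared their value in KO replicate 1, 2 or 3 with another set, and so did 82, 88 and 89 of the 536 KO-high sets, a smaller share. An example is 27.6 in KO replicate 1, found for the highest row of Col4a2 and for a row of ENSMUSG00000021957, shared with ENSMUSG00000093156 that lies within it, on another chromosome. Both rows differed in the other libraries, at 41.1 and 31.7 in KO replicate 2 and at 55.1 and 26.1 in replicate 3.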

How the data were processed

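The deposited input files give raw read counts for each gene, made with featureCounts 1.6.3 and the Ensembl release 104 annotation, per the file headers. The command carried no strand option, so antisense and overlapping genes cannot be told apart. Values of the RIP table are a linear ratio, the authors' fold enrichment, in 1 column per RIP library, with 0 columns left unmapped. The submitters' processing notes list BWA 0.7.12, MACS2 2.1.0, DESeq2 1.26.0, FastQC and build GRCm38, with no role for any. Coordinates are those of the count files, whose annotation release is of a later build than that in the notes. None was converted.

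Members, lists and tests were chosen with earlier results of these data known. Lengths and exon blocks come from the exons listed in the count files. Levels are CPM with TMM factors per kb, averaged over libraries. A row takes the level of its gene. The input counts went into edgeR 4.0.16 in R 4.3.3 (TMM, filterByExpr, quasi-likelihood, KO over WT) with DESeq2 1.42.0 as an alternative. Ratios were tested with limma 3.58.1 on log2(ratio + 1), which understates low values, columns centred, rows with a mean of at least 1. Both steps were run on simulated data in which all genes had the same dispersion and all rows the same SD. Spread differed between the real rows, so these runs do not show how the tests perform here. Input replicates differed by more than sampling noise (chi-square per degree of freedom 7.03 to 12.1). Same-numbered samples did not rise together (correlations -0.110 to -0.0511 in the inputs and -0.601 to -0.218 in RIP), so the numbers were not taken to pair samples. The RIP libraries did not group fully by genotype. WT replicate 1 had Spearman correlations of 0.651, 0.673 and 0.678 with KO replicates 1, 2 and 3, and 0.638 and 0.655 with WT replicates 2 and 3. KO replicates correlated at 0.678 to 0.7265 with each other, and WT replicates 2 and 3 at 0.6975.

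Neither the files nor the RefSeq table (assembly GRCm38.p6) pair these identifiers with names. A name was given only where exactly 1 RefSeq gene on the same chromosome had the identical span of at least 1000 bp and a start within 500 kb. This named 2935 genes, 508 of them in the RIP table beside Fmr1. With the RefSeq table moved by 5 or 10 Mb either way, 21 to 28 genes matched, 1 or 2 of them in the RIP table and 0 of them KO-high. Mitochondrial genes took names from identical coordinates. The text names, by a fixed rule, the 10 genes with the highest lowest KO ratio, rows nearest the threshold, extremes of length, input, row number and WT over KO ratio, list members and Fmr1. KO-high genes with a matched name are named besides, except where a result is not reported here. Genes that fill several of these places are described once, and some are left to counts.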

Additional observations from a re-analysis of the deposited data

How the results depend on the processing

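Results kept their direction under the alternatives, except exonic length, whose KO-high over other ratio of 1.02 was 0.948 at a threshold of 6, 0.829 at 8, 0.841 without genes of 10 or more rows and 1.08 for genomic span; it was 0.989 with the mean KO ratio at 4 or more and 0.983 to 1.04 with 1 KO library left out. The 579 rows became 1137 at a threshold of 3, 209 at 6, 87 at 8 and 1326 by the mean, and 673 to 950 with 1 KO library left out. The exon block ratio of 1.36 was 1.18 by the mean, 1.20 without genes of 10 or more rows, and 1.18 to 1.36 with a library left out. The single-exon share of 3.80% was 5.62% with 1 row per gene, 2.90% at a threshold of 3, 1.01% without repeated rows, 4.88% without genes of 10 or more rows, and 3.29% to 4.11% with a library left out. The input ratio of 2.99 (medians of library means) was 2.41 at a threshold of 3, 3.69 at 6, 5.05 at 8, 1.92 by the mean, 2.37 without genes of 10 or more rows, 2.61 without division by length, and 2.03 to 3.02 with a library left out. Rows high in all WT libraries numbered 836, 152 and 58 at thresholds of 3, 6 and 8 in both genotypes (73.5%, 72.7% and 66.7% of KO-high rows), and 442 to 443 with 1 WT library left out. The input test called 1 KO-high gene with DESeq2, 3 without the low-count filter and 0 to 2 with a library left out. Over all genes, these settings called 37, 113 and 5 to 37. Without the filter on low ratios limma called 1 row, not a KO-high one. The causes were not tested.

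With the replicate number as a block, which the labels do not show to pair samples, the input test called 2 KO-high genes and 20 genes in all in place of 10, and the RIP test called 0 rows. The ratios carry no read depth, so the counting error of any row is unknown, and rows of genes with few input reads are the least certain.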
